A study of Mus musculus with 4 samples.

Results

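Cytosolic aminoacyl-tRNA synthetases were examined in ribosome footprints of MLE-12 cells, an immortalised mouse lung epithelial line that serves as a stand-in for alveolar type 2 cells. The set is 10 Ensembl gene IDs, named Aars, Gars, Nars, Sars, Yars, Wars, Mars, Eprs, Iars and Lars, out of 53465 IDs in the count table. The IDs were picked by the name of the enzyme, with earlier results of these data known. The table carries no symbols, so the names are those of the list that defined the set and could not be checked against the files. Untreated cells (control, replicates 1 and 2) were compared with cells exposed to 5 µM 1-nitropyrene for 12 h (replicates 2 and 3). 1-Nitropyrene, a pyrene that carries a nitro group, is found in diesel exhaust. All 4 libraries come from this 1 line, with no other genotype or agent, and the labels do not say whether the samples of a group were separate cultures. The spread behind each p-value is thus that between these samples, pooled over genes in the main test, and may be technical only. The defining markers of alveolar type 2 cells were not analysed here, because their IDs could not be named.

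Each aminoacyl-tRNA synthetase joins an amino acid to its matching tRNA, which supplies the ribosome with charged tRNA for that amino acid. The enzymes fall into class I and class II by the fold of their catalytic domain. In the cytosol of mammalian cells several of them, Mars, Eprs, Iars and Lars included, are held with scaffold proteins in a multisynthetase complex, while Aars, Gars, Nars, Sars, Yars and Wars work outside it. Many synthetase genes are known targets of ATF4, the transcription factor of the amino acid response, which is induced when uncharged tRNA or other stress lowers the rate of initiation. A footprint is an RNA fragment protected by a ribosome, so the count on a gene reflects how much mRNA was present as well as how many ribosomes were on it, and these cannot be told apart without matched RNA libraries. In bulk samples such as these, fewer cells making a transcript and less RNA per cell cannot be told apart either.

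In the main test the estimated changes of the 10 genes were small, though imprecise for Mars and Wars, the least covered. All 10 passed the filter on low counts, with mean counts of 68 (Mars) to 829.75 (Gars) per library, which placed them between the 67.3 and 98.3 percentiles of the 7719 genes tested. Footprints rose on 2 genes, Aars and Eprs, fell on 1, Gars, and did not pass the test on the other 7 (edgeR quasi-likelihood F test, with a threshold of 0.05 on the p adjusted by Benjamini-Hochberg across all tested genes). Among all genes tested 17.3% were called, 9.68% higher and 7.58% lower. Among the 3242 genes whose mean count reached 50, a range that holds all 10 synthetases, 27.6% were called, 17.6% higher and 10.1% lower. The count of called synthetases lies near these shares, and nothing is read from it about the set. The median log2 fold change was -0.027 over the 10 genes and -0.0076 over all genes tested. The called changes were small in the main test, at most 1.18-fold. Of the 1332 called genes, 35 (2.63%) had a smaller absolute log2 fold change than Eprs, which changed the most of the 10.

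**Figure D1:**
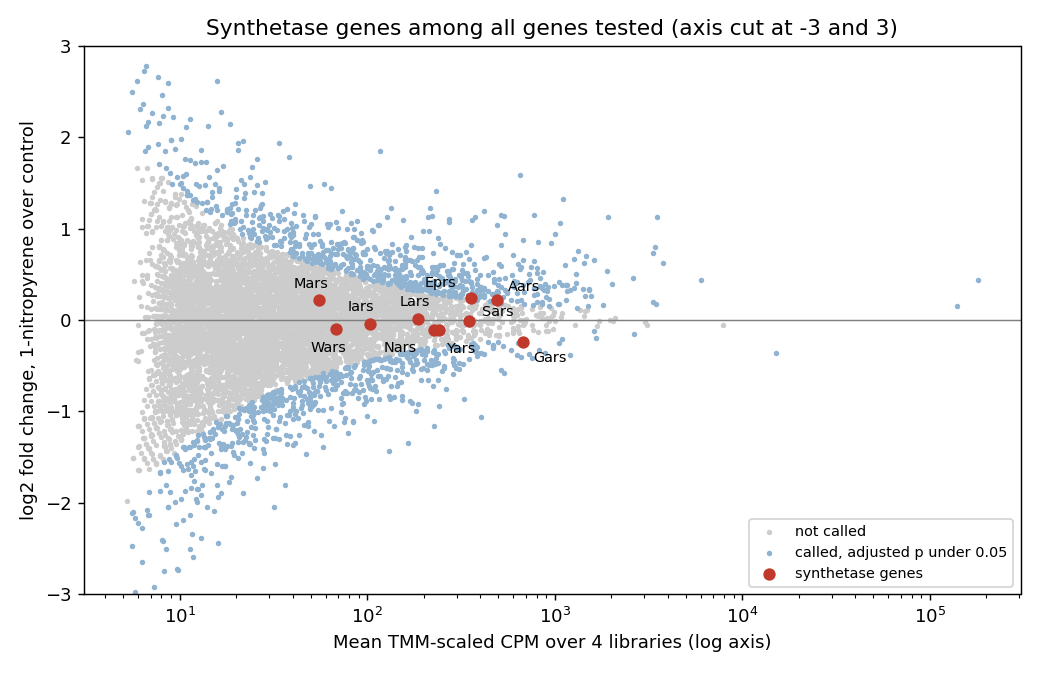
Mean TMM-scaled CPM over the 4 libraries (x, log axis) against the edgeR log2 fold change of 1-nitropyrene over control (y), with 1 point per gene tested; blue points were called, grey points were not, and 3 genes lie outside the axis limits of -3 and 3. The synthetase genes (red) lie between -0.24 and 0.24, close to the zero line, at medium to high footprint levels.

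In all, 1261372 and 1136145 footprints were counted in the control libraries, and 1243186 and 1357034 after 1-nitropyrene. The 2 IDs with the most counts took 29.7% and 29.8% of the control counts and 32.9% and 33.0% of the 1-nitropyrene counts. Levels are given in CPM, counts per 1000000 after scaling by TMM (trimmed mean of M-values), a factor that takes most genes as unchanged. Scaling to library totals lowered the median log2 fold change of all tested genes by 0.16, and the called changes below are read against that shift.

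The promoters of the set are shown because ATF4 acts through a short element, the amino acid response element, and Gars and Eprs are shown at length as genes called in opposite directions. RefSeq promoter windows of assembly GRCm38.p6, each 250 bases before to 50 bases after an annotated transcript start, were searched for 6 of the 10 genes: Gars, Sars, Yars, Mars, Eprs and Iars. The search covered both strands and looked for the core TGATGNAA, where N is any base. It was found in 3 of the 6, Gars, Yars and Iars, against 3.97% of all 32851 windows of this length and 4.51% of the 27025 genes they belong to. Sars, Mars and Eprs had no match to these letters in the window. The matches are set out below with 10 bases on either side, 5′ to 3′ on the strand of the gene, with the match in capitals.
Gars, chr6:55037961-55037988, plus strand, bases -30 to -23: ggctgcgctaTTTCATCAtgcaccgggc
Yars, chr4:129189896-129189923, plus strand, bases 4 to 11: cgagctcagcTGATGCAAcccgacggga
Iars, chr13:49682127-49682154, plus strand, bases 8 to 15: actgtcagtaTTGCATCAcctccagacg

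The start used for a window can differ from the outermost start of the gene. In Gars, Sars, Mars and Iars they were the same base, but the window of Yars used a start 169 bases, and that of Eprs one 1627 bases, inside the full gene span given below, so these windows lie partly or wholly within the gene. The core lies on the strand of the gene in Yars and on the opposite strand in Gars and Iars, where it reads as its reverse complement. Matches are descriptions of letters, not binding sites. These letters were present in the gene that fell (Gars) and in 2 that did not pass the test (Yars and Iars). Of the 2 genes that rose, only Eprs was searched, so nothing is read from the matches about direction. The 250 bases before the start sites of Gars and Eprs follow, from RefSeq GRCm38.p6 on the plus strand, with any match to the core in capitals.
Gars, chr6:55037751-55038000: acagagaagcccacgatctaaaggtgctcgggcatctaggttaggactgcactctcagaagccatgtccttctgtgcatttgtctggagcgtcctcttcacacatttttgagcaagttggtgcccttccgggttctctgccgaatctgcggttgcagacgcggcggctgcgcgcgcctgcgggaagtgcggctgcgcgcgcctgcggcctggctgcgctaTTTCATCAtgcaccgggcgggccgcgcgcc
Eprs, chr1:185362794-185363043: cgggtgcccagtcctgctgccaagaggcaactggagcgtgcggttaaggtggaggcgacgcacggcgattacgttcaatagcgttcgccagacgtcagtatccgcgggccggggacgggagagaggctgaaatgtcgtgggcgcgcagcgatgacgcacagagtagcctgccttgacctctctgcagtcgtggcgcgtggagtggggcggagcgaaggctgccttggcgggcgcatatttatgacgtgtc

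Over these 250 bases the share of G and C was 62.4% for Gars and 64% for Eprs. The promoters of the 4 genes outside these 6 are not analysed here.

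**Figure D2:**
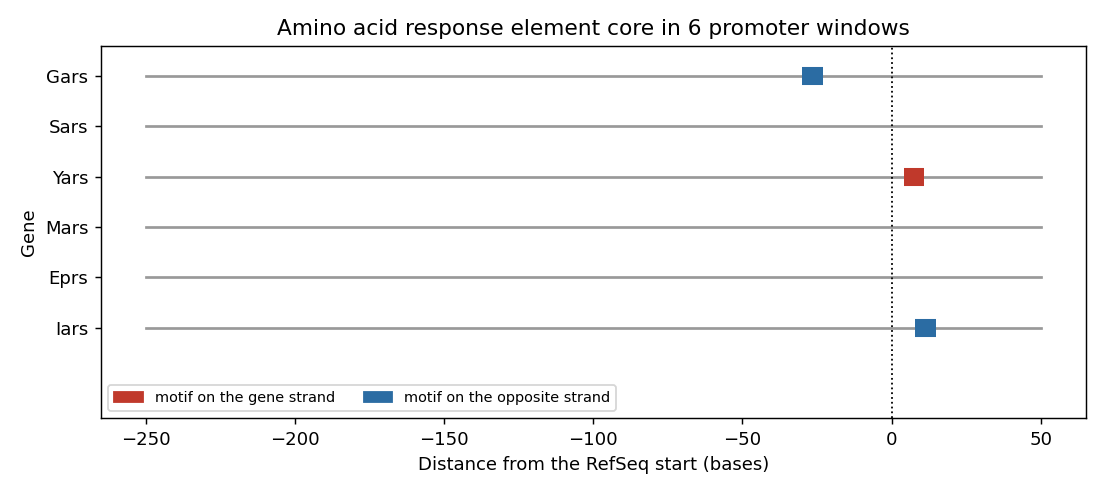
Position of the core of the amino acid response element in the RefSeq promoter windows of 6 synthetase genes; the x axis is the distance in bases from the start site (dotted line), red marks a match on the strand of the gene and blue one on the opposite strand. Gars, Yars and Iars hold 1 match each, and Sars, Mars and Eprs none.

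Among the class II enzymes outside the complex, Gars fell, Aars rose, and Nars and Sars did not pass the test. Gars (ENSMUSG00000029777, chr6:55038001-55079504) encodes glycyl-tRNA synthetase and supplies the enzyme of the mitochondria as well as that of the cytosol. It held 960 and 863 footprints in controls against 730 and 766 after 1-nitropyrene. Scaled levels were 730.2 and 728 CPM in controls and 628 and 607 CPM after 1-nitropyrene, so that both treated libraries lay below both controls. The group means were 729 ± 1.48 and 617 ± 15.2 CPM (SD, n = 2 each), a fall of 15.4% (edgeR log2 fold change -0.24 ± 0.063 SE, 95% interval -0.36 to -0.12, adjusted p = 0.0019). Scaled to library totals the fall was larger, to 0.755 of the control level (edgeR adjusted p = 7.34e-09). The call was lost without 1-nitropyrene replicate 2 (adjusted p = 0.0506) and without 1-nitropyrene replicate 3 (adjusted p = 0.0595), at log2 fold changes of -0.25 and -0.21, and with the DESeq2 Wald test (log2 fold change -0.23, adjusted p = 0.133).

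Aars (ENSMUSG00000031960, chr8:111027778-111055569) encodes alanyl-tRNA synthetase, which edits mischarged tRNA besides charging it. Control libraries held 620 and 519 of its footprints, against 623 and 660 after 1-nitropyrene. The scaled levels of 472 and 438 CPM in controls were both below the 536 and 523 CPM after 1-nitropyrene. The means were 455 ± 23.8 and 529 ± 9.42 CPM (SD, n = 2 each), a rise of 16.3% (edgeR log2 fold change 0.22 ± 0.074 SE, 95% interval 0.074 to 0.36, adjusted p = 0.0237). With library totals the groups overlapped, at 491.5 and 457 per 1000000 total counts in controls against 501 and 486 after 1-nitropyrene, and the call was lost (edgeR log2 fold change 0.053, adjusted p = 0.662). It was also lost with the DESeq2 Wald test (adjusted p = 0.231), without control replicate 2 (log2 fold change 0.17, adjusted p = 0.265), without 1-nitropyrene replicate 2 (0.21, adjusted p = 0.161) and without 1-nitropyrene replicate 3 (0.24, adjusted p = 0.0727).

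Nars (ENSMUSG00000024587, chr18:64499655-64516515) encodes the asparaginyl enzyme. It had 227 and 244 CPM in controls and 203 and 233 CPM after 1-nitropyrene, and the groups overlapped. With TMM scaling the log2 fold change of Nars, -0.11, had a 95% interval from -0.32 to 0.10 (edgeR adjusted p = 0.539). Changes between 0.800 and 1.07 of the control level were thus compatible with the data under that scaling. With library totals the interval was -0.49 to -0.06. Sars (ENSMUSG00000068739, chr3:108424864-108445259) encodes the seryl enzyme, which charges both serine and selenocysteine tRNA. The 2 controls lay at 349.9 and 350.1 CPM, while the 1-nitropyrene libraries lay on either side of them, at 386 and 309 CPM. The coefficient of variation between the 1-nitropyrene libraries was 15.8%, against 4.88% from counting alone, the widest excess over counting noise in the set. The log2 fold change was -0.013 (95% interval -0.18 to 0.16, edgeR adjusted p = 0.943). The standard error of 0.087 does not reflect this wide spread, because edgeR took the spread from the genes pooled. Eprs had a standard error of 0.086 with a coefficient of variation of 1.66% between the 1-nitropyrene libraries.

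**Figure D3:**
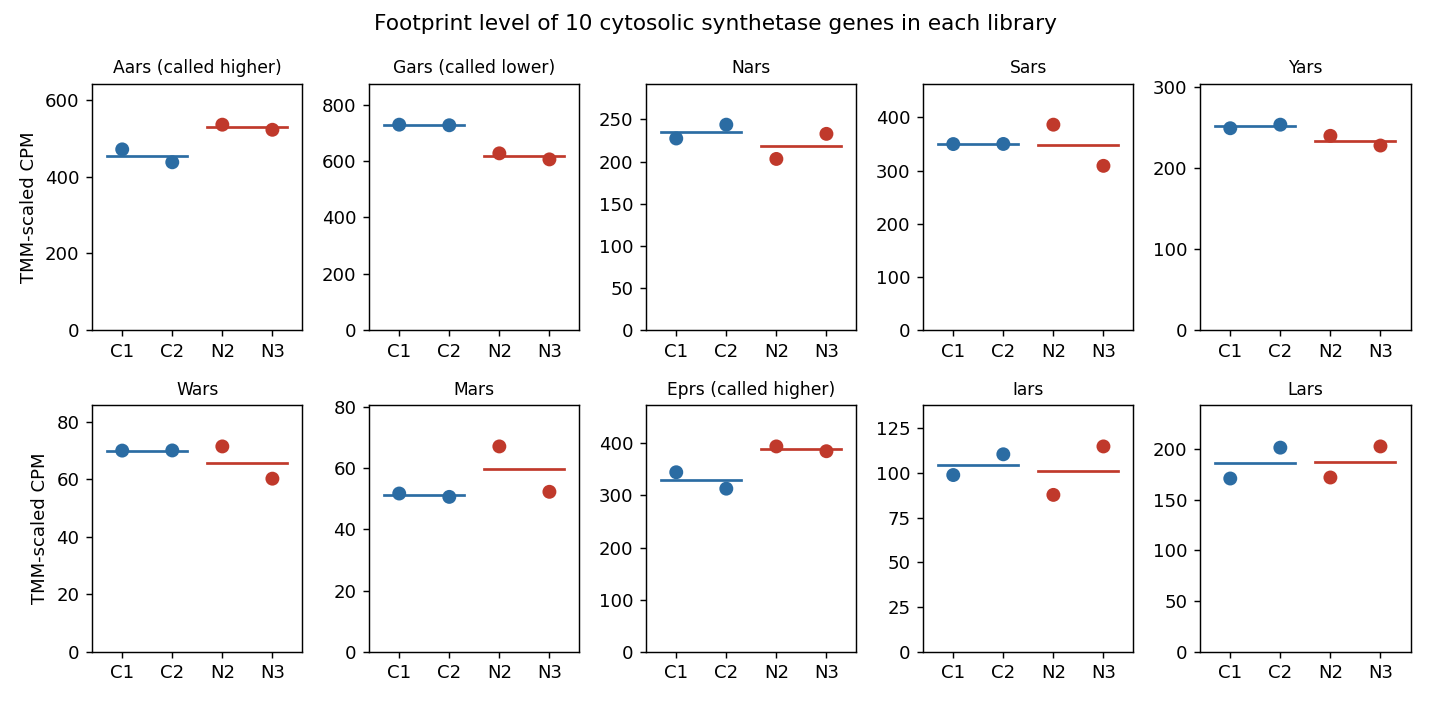
TMM-scaled CPM (y, from 0, with its own range in each panel) of each synthetase gene in control replicates 1 and 2 (C1, C2, blue) and 1-nitropyrene replicates 2 and 3 (N2, N3, red), with lines at the group means. Gars is lower and Aars and Eprs are higher in both 1-nitropyrene libraries; Sars, Wars, Nars, Iars and Lars overlap between groups.

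Neither class I enzyme outside the complex passed the test. Yars (ENSMUSG00000028811, chr4:129189734-129219240) encodes tyrosyl-tRNA synthetase, a fragment of which can be secreted and act as a cytokine. Its levels of 249.5 and 254 CPM in controls were both above the 240.1 and 228 CPM after 1-nitropyrene. The gap was small beside the error, with a log2 fold change of -0.11 (95% interval -0.31 to 0.10, edgeR adjusted p = 0.537). Wars (ENSMUSG00000021266, chr12:108860030-108894175) encodes tryptophanyl-tRNA synthetase, which is known to be induced by interferon. It rested on 92 and 83 counts in controls and 83 and 76 after 1-nitropyrene. At 70.0 and 70.0 CPM against 71.4 and 60.2 CPM the groups overlapped (log2 fold change -0.092, 95% interval -0.49 to 0.31, edgeR adjusted p = 0.817). At this depth a change of Wars to 0.712 or to 1.24 of its control level lies within the TMM interval. With library totals the interval of the log2 fold change was -0.66 to 0.14.

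Of the 4 enzymes of the multisynthetase complex, Eprs rose and Mars, Iars and Lars did not pass the test. Eprs (ENSMUSG00000026615, chr1:185361417-185428360) encodes a fused enzyme that charges the tRNAs of glutamate and of proline, so it belongs to class I through its glutamyl part and to class II through its prolyl part. Controls held 453 and 371 of its footprints, against 458 and 486 after 1-nitropyrene. Scaled levels were 344.5 and 313 CPM in controls and 394 and 385 CPM after 1-nitropyrene, with no overlap. The means of 329 ± 22.3 and 389.5 ± 6.47 CPM (SD, n = 2 each) corresponded to a rise of 18.3% (edgeR log2 fold change 0.24 ± 0.086 SE, 95% interval 0.074 to 0.41, adjusted p = 0.0334). With library totals the groups overlapped, at 359 and 326.5 per 1000000 total counts against 368 and 358, and the call was lost (edgeR log2 fold change 0.077, adjusted p = 0.572). It was also lost with the DESeq2 Wald test (adjusted p = 0.269) and without any 1 of the 4 libraries, namely control replicate 1 (log2 fold change 0.31, adjusted p = 0.0564), control replicate 2 (0.18, adjusted p = 0.327), 1-nitropyrene replicate 2 (0.24, adjusted p = 0.184) and 1-nitropyrene replicate 3 (0.26, adjusted p = 0.103).

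Mars (ENSMUSG00000040354, chr10:127296221-127311786) encodes methionyl-tRNA synthetase, which charges the initiator as well as the elongator methionine tRNA. It was the least covered of the 10 genes, with 68 and 60 counts in controls and 78 and 66 after 1-nitropyrene. Levels of 51.7 and 50.6 CPM against 67.1 and 52.3 CPM did not overlap, but without 1-nitropyrene replicate 2 the log2 fold change was 0.046. With TMM scaling the log2 fold change of Mars, 0.22, equalled that of Aars to 2 decimals, with a 95% interval from -0.22 to 0.66 (edgeR adjusted p = 0.556). The standard error of Mars, 0.23, was the largest of the 10 beside 0.074 for Aars.

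Iars (ENSMUSG00000037851, chr13:49682130-49734267) and Lars (ENSMUSG00000024493, chr18:42202298-42262237) encode the isoleucyl and leucyl enzymes. The leucyl enzyme also serves as a leucine sensor for the mTORC1 pathway. Iars lay at 98.9 and 110.5 CPM in controls and 87.8 and 115 CPM after 1-nitropyrene, with both controls between the treated libraries. Lars lay at 171 and 202 CPM in controls and 172 and 203 CPM after 1-nitropyrene, so that the spread within a group was far wider than the gap between group means of 186 ± 21.6 and 187 ± 21.7 CPM (SD, n = 2 each). The 95% intervals of the log2 fold change were -0.36 to 0.28 for Iars and -0.22 to 0.25 for Lars (edgeR adjusted p = 0.912 and 0.958).

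**Figure D4:**
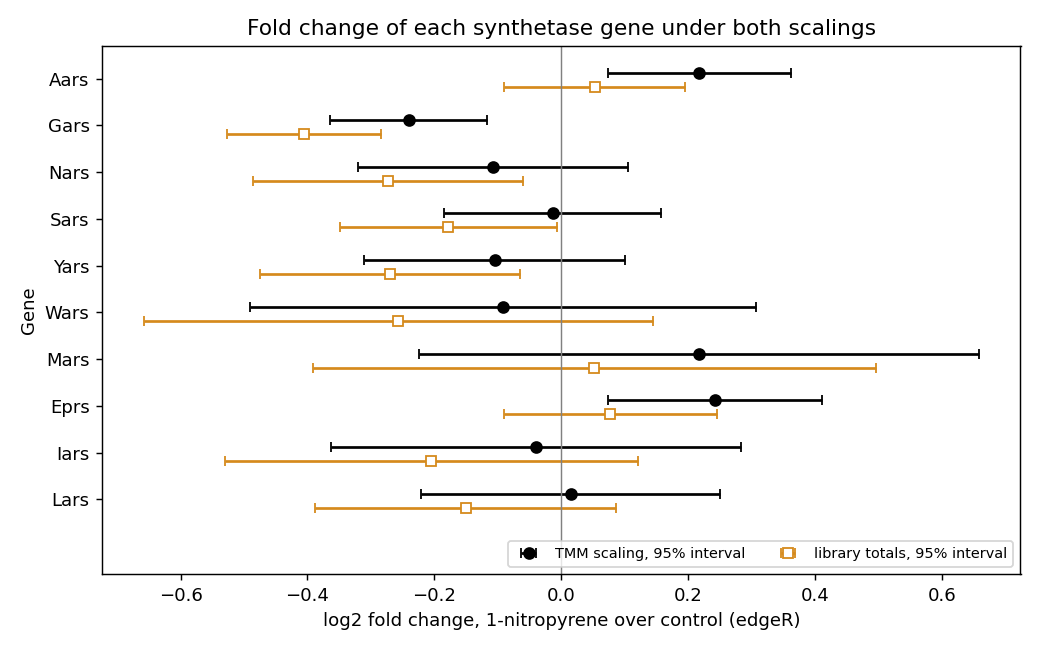
edgeR log2 fold change of 1-nitropyrene over control (x) for each synthetase gene, with 95% intervals, under TMM scaling (filled circles) and library totals (open squares). With TMM the intervals of Aars, Gars and Eprs leave out 0. With library totals every estimate lies further to the left. The intervals of Aars and Eprs then include 0, while those of Gars, Nars, Sars and Yars leave it out.

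With TMM scaling, the groups did not overlap for 5 of the 10 genes (Aars, Gars, Yars, Mars and Eprs), while 57.3% of all genes tested did not overlap. With library totals Gars, Nars, Sars, Yars and Wars were lower without overlap, and the others overlapped. The like share of all genes tested was not computed for library totals. Of the 10 log2 fold changes, 4 were above 0 and 6 below. With library totals, Gars was the single synthetase called, among 19.6% of all genes tested, of which 14.4% were lower and 5.26% higher. In that fit 4 of the synthetases (Gars, Nars, Sars and Yars) had an unadjusted p under 0.05, all of them lower. Beside them, 23.7% of all genes tested were lower at that threshold and 8.59% were higher. In the higher direction 0 synthetases were called or had an unadjusted p under 0.05. Nars and Yars then came near the threshold, at log2 fold changes of -0.27 for both (edgeR adjusted p = 0.0576 and 0.0505). The DESeq2 Wald test called 0 of the 10, and 1 of them, Gars, was under 0.05 before adjustment. Over all genes DESeq2 called 11.9% of those it tested, 8.94% higher and 2.95% lower.

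Summed over the 10 genes, footprints made up 0.288% and 0.288% of all counts in the controls and 0.261% and 0.253% after 1-nitropyrene. After TMM scaling the sums were 2765 and 2760 CPM in controls and 2786 and 2714 CPM after 1-nitropyrene, so that the groups overlapped. Whether the summed synthetase footprints fell thus turns on the scaling. The sum over the 4 complex enzymes was 666 and 676 CPM in controls and 721 and 755 CPM after 1-nitropyrene, and that over the 6 other enzymes 2098 and 2084 against 2065 and 1960 CPM. Per 1000000 total counts the complex enzymes summed to 694.5 and 705 in controls and 674 and 702 after 1-nitropyrene, so that the groups overlapped and the mean was slightly lower, while the 6 others were at 2187 and 2174 against 1931 and 1823. These sums are descriptions and lean on their most covered members, Eprs in the complex and Gars outside it.

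The make-up of the family does not depend on scaling between libraries, since it compares genes within a library. Gars took 26.4% and 26.4% of the footprints on the 10 genes in controls and 22.5% and 22.4% after 1-nitropyrene. Aars took 17.1% and 15.9% in controls and 19.2% and 19.3% after 1-nitropyrene, and Eprs 12.5% and 11.3% against 14.1% and 14.2%. The share of Mars was also higher without overlap, at 1.87% and 1.83% against 2.41% and 1.93%, that of Yars lower, at 9.02% and 9.20% against 8.62% and 8.40%, and the other 5 overlapped. Shares of a closed sum are tied to each other, so that a lower share of Gars, the largest, raises the others. With 2 libraries against 2, lack of overlap is common: 57.3% of all genes tested showed it in TMM-scaled CPM. No like share was computed for other sets of genes, so nothing is read from how many of these shares overlapped. The ratio of Gars to Aars footprints was 1.55 and 1.66 in controls and 1.17 and 1.16 after 1-nitropyrene, with no overlap. Against Eprs the ratio was 2.12 and 2.33 in controls and 1.59 and 1.58 after 1-nitropyrene. Of the 45 ratios between 2 of the 10 genes, 20 did not overlap between the groups. Gars, Aars and Eprs each took part in 6 of these, Sars and Wars in 5, and Iars in 0, so the count is not particular to Gars. The like share among pairs of all genes tested was not computed, so nothing is read from the 20 ratios about the set. The smallest p that an exact permutation test (two-sided) allows for 2 libraries against 2 is 0.333, so these ratios carry no test of their own. Counts are not corrected for coding length, so a larger share does not mean that more of an enzyme is made per mRNA or per cell.

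**Figure D5:**
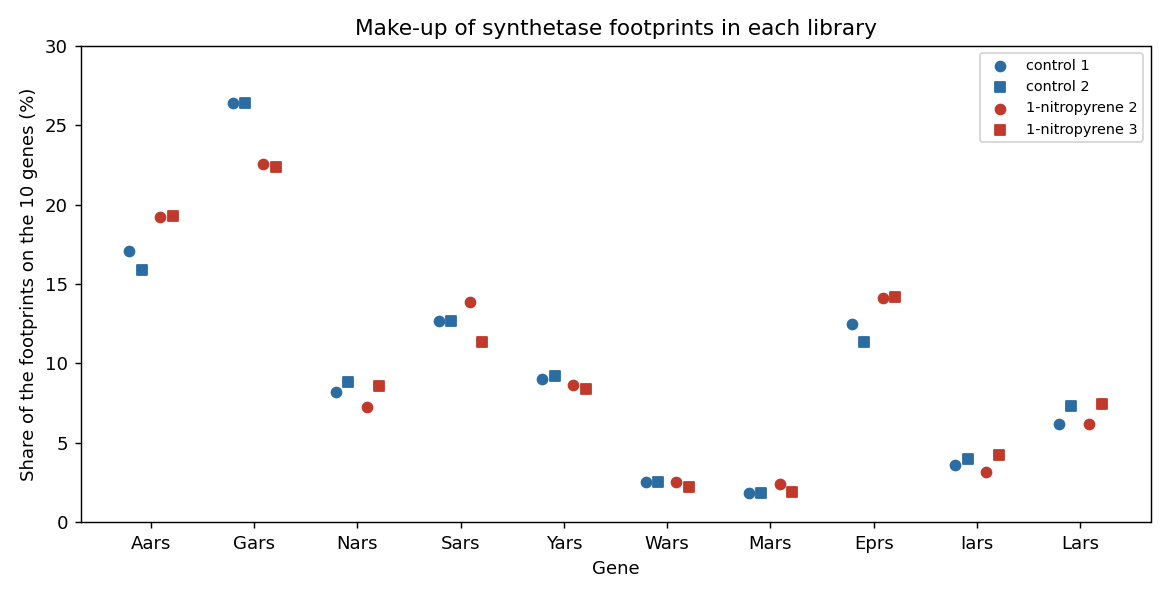
Share of the footprints on the 10 synthetase genes (y, percent, from 0) taken by each gene (x) in control replicates 1 and 2 (blue circles and squares) and 1-nitropyrene replicates 2 and 3 (red circles and squares). The share of Gars is near 26.4% in both controls and near 22.5% in both 1-nitropyrene libraries, while those of Aars and Eprs are higher after 1-nitropyrene.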

How the data were processed

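Ribosome footprints were sequenced from 2 control and 2 1-nitropyrene libraries, after a cycloheximide wash, kit-based footprint purification and rRNA depletion, per the labels’ protocols. The authors deposited whole-number counts per Ensembl gene ID, with no normalization, in 1 table with 0 other sample columns. The submitters' processing notes name DESeq2, featureCounts, HISAT2, Bowtie and cutadapt, with mm10 as the build; their versions, settings, the annotation, fragment length selection and the handling of reads matching several genes are not stated in the labels, so counts of genes with near copies or overlapping neighbours are uncertain.

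Genes were kept with filterByExpr (minimum count 10, minimum total 15), scaled by TMM and tested with edgeR 4.0.16 (R 4.3.3) by the quasi-likelihood F test without covariates. A gene was called below 0.05 after Benjamini-Hochberg adjustment across the 7719 tested genes. Standard errors were taken as the fold change over the root of F. In this fit the spread pooled over genes was given infinite prior weight. The spread of a single gene between its libraries thus did not enter its standard error, interval or p. Scripts were tested on simulated data whose smallest change was larger than any synthetase change called in the main test. The outcome is not reported here, so it lends no weight to these calls. Alternatives were other scalings and filters, DESeq2 1.42.0, limma-voom (limma 3.58.1) and leaving out each library. In the edgeR fit on library totals, the totals are those of the genes tested. Values per 1000000 total counts, and the log2 ratio of the summed level with library totals, used the totals over all IDs. All 10 members were named. The members and lists were chosen with earlier results of these data known. Gene positions and promoters are from RefSeq GRCm38.p6, the assembly also called mm10, matched by symbol (10 and 6 of 10 genes; other promoters are not reported here). Its table gives no Ensembl IDs, so the lists of other cytosolic and mitochondrial synthetases, complex scaffolds, amino acid response genes and cell type markers, the genes of most similar pattern and levels per codon are not analysed here.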

Additional observations from a re-analysis of the deposited data

How the results depend on the processing

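DESeq2's size factors, TMM computed after dropping the 2 most counted IDs, the filter of 5 CPM in 2 libraries and limma-voom kept the direction and the call of all 10 genes. Over the 11 alternatives, 87 of 110 gene values kept both, 14 lost the call and 9, all of genes not called, changed sign. With library totals 0 members were called higher in edgeR (0 at an unadjusted p under 0.05), the median log2 fold change of the members was -0.19, Aars was at 0.053, Eprs at 0.077 and Lars at -0.15, and the log2 ratio of the summed level was -0.17 against -0.0062 with TMM. The cause is in the construction, since that scaling moved all genes by -0.16. Without a filter the median was -0.011 and Sars at 0.0024. The DESeq2 Wald test called 318 genes in all and 0 members higher and 0 lower (0 and 1 at an unadjusted p under 0.05), with log2 fold changes of 0.23 for Aars, -0.23 for Gars, 0.26 for Eprs and 5.45e-05 for Sars; the cause was not tested. Leaving out 1 library, with the lone sample taken to vary as the other group does, gave 572 to 834 genes called in edgeR, 0 to 1 members higher, 0 to 1 lower and a median of -0.098 to 0.023. The ranges of log2 fold change were then 0.17 to 0.27 for Aars, -0.25 to -0.21 for Gars, 0.18 to 0.31 for Eprs, -0.16 to 0.15 for Sars, -0.20 to 0.032 for Wars, -0.25 to 0.15 for Iars and -0.11 to 0.14 for Lars. Where 0 were called higher without a library, 2 had an unadjusted p under 0.05 without either 1-nitropyrene library and 0 without control replicate 2; where 0 were called lower, 1 had. No paired analysis was possible because replicate 2 is the single number that both groups carry. Depth limits Mars and Wars most, with standard errors of 0.23 and 0.20 against 0.063 for Gars. The alternatives planned for the symbol lists and for levels per codon were not run.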

Other observations

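For 7 of the 10 genes the libraries stood in the same order of CPM within both groups when control replicate 1 is set beside 1-nitropyrene replicate 2. This was noticed after the values were seen, and the labels give no such pairing. The like share among all genes tested was not computed. Some gaps were slight, such as 730.2 against 728.1 CPM for Gars in controls, so nothing is read from the 7. Nars, Iars and Lars were higher in control replicate 2 than in control replicate 1, and higher in 1-nitropyrene replicate 3 than in 1-nitropyrene replicate 2. Aars, Gars, Mars and Eprs were lower in those libraries in both groups, and Sars, Yars and Wars kept no common order. Lars took 6.19% and 7.31% of the footprints on the 10 genes in the controls and 6.18% and 7.47% in the 1-nitropyrene libraries. Iars took 3.58% and 4.00% in the controls and 3.15% and 4.23% after 1-nitropyrene. In controls the coefficient of variation was below that from counting alone for 7 of the 10 genes, with Sars at 0.0492% against 4.78%. After 1-nitropyrene it was below counting for 4 genes, with Sars at 15.8% against 4.88%. An SD from 2 libraries is imprecise, and the like shares among all genes tested were not computed. Nothing is thus read from these counts about how tight either group was.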
